A study of Mus musculus with 36 samples.

Results

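Corticosterone, the main glucocorticoid of mice, and corticotropin-releasing hormone (CRH) are followed here through the mRNA of 6 genes chosen by name: Nr3c2, Nr3c1, Hsd11b1, Crh, Crhr1 and Crhbp. They are 6 of 37315 genes counted in 36 libraries of polyadenylated RNA, and all 6 passed the filter on low counts in every fit. The libraries came from the hippocampal fields CA1 and CA3 and from a pair of entorhinal areas, lateral (LEC) and medial (MEC), the cortex that feeds the hippocampus. Each region gave 3 libraries of each of 3 conditions: mice left in the home cage, mice put into a context without shock (context), and mice given a foot shock (fear). All were wild-type mice of the BL/6 strain, caged singly and handled for 3 minutes a day on 5 days, and tissue was taken 90 minutes after the behaviour. Age and sex are not in the labels used here. Each library is a piece of dissected tissue and not a sorted cell type, so that fewer cells of a type and less RNA per cell cannot be told apart. The labels do not say whether replicate numbers mark mice, so the p-values cover no more than library-to-library spread, which may be technical.

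Corticosterone acts through a pair of nuclear receptors. The mineralocorticoid receptor, encoded by Nr3c2, binds the hormone tightly and is known for its dense expression in hippocampal pyramidal cells, while the glucocorticoid receptor, encoded by Nr3c1, binds it less tightly and is filled when hormone rises under stress. The enzyme encoded by Hsd11b1 regenerates corticosterone from its inert form inside the cell. Crh encodes the peptide that opens the stress axis and is also made by forebrain interneurons, Crhr1 its main receptor in the forebrain, which couples to cAMP, and Crhbp a secreted protein that binds CRH and limits what reaches the receptor.

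The median library held 28098007 counts (lowest 21871412, highest 68974340), and levels are given as CPM, counts scaled to a common library total. The 5 markers of CA1 pyramidal cells summed to 500 to 1400 CPM in CA1 and to 88.7 to 379 CPM in CA3, and the 5 markers of CA3 pyramidal cells to 441 to 596 CPM in CA3 and 92.3 to 247 CPM in CA1. The 6 dentate granule markers, of a neighbouring field, reached 471 CPM in a CA1 library and 244 CPM in a CA3 library, against at most 87.5 CPM in the entorhinal libraries. The 8 neocortical layer markers summed to 379 to 775 CPM in LEC and MEC. No list of markers that would tell LEC from MEC was used. In CA3, context 2 and home cage 2 lay at opposite ends of that region's first principal component (66.5% of variance, at -52.2 and 47.9), and home cage 2 of CA1 lay farthest out in CA1 (39.5). Results in CA1 and CA3 are therefore also given without context 2 and home cage 2.

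For the 3 members that were called in a comparison of conditions below and have a usable entry among the RefSeq promoters of GRCm38.p6, the bases before the transcript start follow, read 5′ to 3′ on the gene's strand, without any base of an annotated exon and with each CpG dinucleotide in capitals. They are shown because the members' start regions differ in composition. The Nr3c2 stretch (chr8:76902080-76902287, plus strand) lies inside the annotated gene between exons, before an internal start. Those of Crhr1 (chr11:104132531-104132780, plus strand) and Crhbp (chr13:95444925-95445081, minus strand) lie just before the annotated genes.
Nr3c2: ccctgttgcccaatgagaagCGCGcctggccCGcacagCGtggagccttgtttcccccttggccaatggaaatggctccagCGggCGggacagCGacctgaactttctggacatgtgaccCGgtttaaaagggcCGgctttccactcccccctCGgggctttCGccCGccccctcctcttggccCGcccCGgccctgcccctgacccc
Crhr1: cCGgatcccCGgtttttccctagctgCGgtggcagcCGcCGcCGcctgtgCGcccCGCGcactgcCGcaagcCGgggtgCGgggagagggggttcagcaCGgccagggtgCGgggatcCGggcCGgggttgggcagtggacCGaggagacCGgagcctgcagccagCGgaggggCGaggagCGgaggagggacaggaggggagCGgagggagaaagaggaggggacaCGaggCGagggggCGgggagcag
Crhbp: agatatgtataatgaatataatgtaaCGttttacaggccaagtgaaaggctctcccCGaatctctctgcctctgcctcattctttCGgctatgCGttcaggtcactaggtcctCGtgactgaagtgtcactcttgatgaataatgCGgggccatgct

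Crhr1 had 25 CpG in 250 bases and 74.8% GC, Nr3c2 14 in 208 bases and 67.3% GC, and Crhbp 6 in 157 bases and 45.9% GC, against a median of 52.4% GC over the 250 bases before the start of 32851 promoters. The letters of the palindromic glucocorticoid response element (TGTTCT preceded, 3 bases apart, by its reverse complement), its core TGTTCT, the cAMP response element TGACGTCA, its core TGACG, the early growth response motif GCGTGGGCG and TATAAA were searched on both strands, each core lying within its full motif. None occurred in the 3 stretches. The Crhr1 stretch runs from 250 bases to 1 base before the start, that of Nr3c2 from 250 to 43 and that of Crhbp from 250 to 94. Bases nearer the start of Nr3c2 and Crhbp were thus not searched. The shares below are of windows of equal length that end at the start, so for Nr3c2 and Crhbp they cover other positions. In windows of the Crhr1 length, 0.00913% of promoters held the full response element, 16.1% its core, 1.55% the cAMP element, 17.8% its core, 0.536% the early growth motif and 12.4% TATAAA. In windows of the Nr3c2 length the 6 shares were 0.00913%, 13.3%, 1.5%, 16%, 0.502% and 10.4%, and in those of the Crhbp length 0.00609%, 10.1%, 1.38%, 13.7%, 0.438% and 7.87%.

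Between regions, Nr3c2 set the hippocampus apart from the entorhinal cortex, Hsd11b1 followed it in a milder form, and Crh and Crhr1 had their lowest levels in CA3. Of 36 differences, 6 genes in 6 pairs of regions averaged over the conditions, 25 passed in edgeR's quasi-likelihood test (a Benjamini-Hochberg adjusted p under 0.05, termed called here). The members called were 3 of 6 between CA1 and CA3, where 31% of all 17875 tested genes were called, 4 between CA1 and LEC (46.6% of genes), 4 between CA1 and MEC (43.6%), 5 between CA3 and LEC (39.8%), 5 between CA3 and MEC (38.4%) and 4 between MEC and LEC (17.4%). The regions differ in many genes, so the count of members is read against those shares and the sizes below carry the description. In 2 members the CPM of the 9 libraries of each region did not overlap between CA1 and LEC (12.3% of genes) and in 2 between CA1 and MEC (12.7%). The count was 3 between CA3 and LEC (10.7%) and 4 between CA3 and MEC (12.6%).

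**Figure D1:**
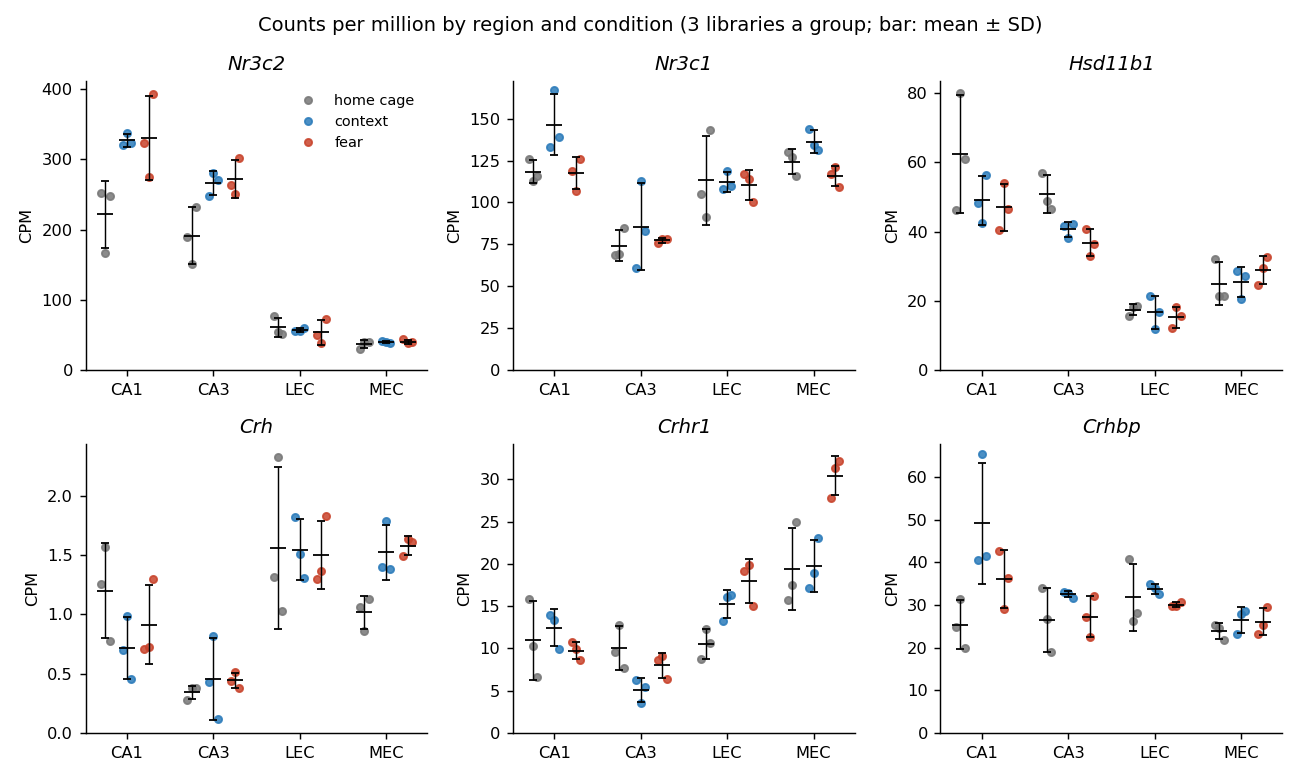
CPM of each member in the 4 regions, with 3 libraries per condition as points (grey for home cage, blue for context, red for fear) and the mean ± SD as a bar. Nr3c2 lies at 151 to 393 CPM in the hippocampal libraries and at 30.5 to 76.7 CPM in the entorhinal libraries, and Crhr1 in MEC is at 27.8 to 32.2 CPM in the 3 fear libraries.

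Nr3c2 (ENSMUSG00000031618, GRCm38 chromosome 8, 76899442 to 77245012, plus strand) was at 167 to 393 CPM in CA1 (median 320, n = 9) and at 151 to 302 CPM in CA3 (median 250). It was at 38.1 to 76.7 CPM in LEC (median 55.4) and at 30.5 to 43.7 CPM in MEC (median 40). Every hippocampal library thus stood above every entorhinal library. The difference on the log2 scale was 2.33 ± 0.12 (SE) for CA1 over LEC, a 5.02-fold higher level (adjusted p = 2.58e-16), and 2.90 ± 0.12 for CA1 over MEC, a 7.46-fold higher level (adjusted p = 1.95e-18). CA3 stood above LEC by 2.14 ± 0.12 (adjusted p = 1.35e-15) and above MEC by 2.71 ± 0.12 (adjusted p = 7.24e-18). Within the cortex, MEC was below LEC by a log2 difference of -0.57 ± 0.12 (adjusted p = 0.000637), with overlapping libraries. The neighbours CA1 and CA3 did not differ beyond their spread (0.19 ± 0.12, adjusted p = 0.215). Of the exon bases of Nr3c2, 247 (3.82%) lie on the strand opposite to exons of Gm10649, a non-coding gene with a mean count of 90.97 against 837 or more counts of Nr3c2 in each library. Whether counting used the strand is not given in the sources used here.

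Nr3c1 (ENSMUSG00000024431, chromosome 18, 39410545 to 39519421, minus strand) varied far less. Its level was 107 to 167 CPM in CA1 (median 126, n = 9), 91.6 to 143 CPM in LEC (median 110) and 109 to 144 CPM in MEC (median 127). In CA3 it was 60.9 to 113 CPM (median 78.1), the lowest of the 4. CA1 exceeded CA3 by 0.61 ± 0.09 (adjusted p = 3.91e-06), and CA3 was below LEC by -0.44 ± 0.09 (adjusted p = 0.000228) and below MEC by -0.57 ± 0.09 (adjusted p = 5.08e-06). The remaining neighbours CA1, LEC and MEC did not differ beyond their spread, with adjusted p of 0.116 to 0.747. With offsets for GC content and transcript length, which were added after the data were seen, these 3 pairs passed as well, the widest being CA1 over LEC (0.36, adjusted p = 6.65e-06).

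Per kilobase of exon, where the levels of both receptor genes can be compared, the order reversed between hippocampus and cortex. Nr3c2 averaged 45.2 ± 10.2 CPM per kb (SD, n = 9) in CA1 and 37.6 ± 7.23 in CA3, against 16.6 ± 2.31 and 10.3 ± 1.92 for Nr3c1. In LEC and MEC, Nr3c2 averaged 8.85 ± 1.8 and 6.08 ± 0.572 CPM per kb, against 14.6 ± 1.86 and 16.3 ± 1.4 for Nr3c1. The log2 ratio of Nr3c2 to Nr3c1 within a library was 0.80 to 1.88 in CA1 (mean 1.42 ± 0.31, a ratio of 2.68) and 1.37 to 2.27 in CA3 (mean 1.86 ± 0.30, a ratio of 3.63). It was -1.34 to -0.21 in LEC (mean -0.74 ± 0.40, a ratio of 0.601) and -1.85 to -1.17 in MEC (mean -1.43 ± 0.21, a ratio of 0.372). The mineralocorticoid receptor transcript was thus the more abundant of the pair in all 18 hippocampal libraries and the less abundant in all 18 entorhinal libraries.

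**Figure D2:**
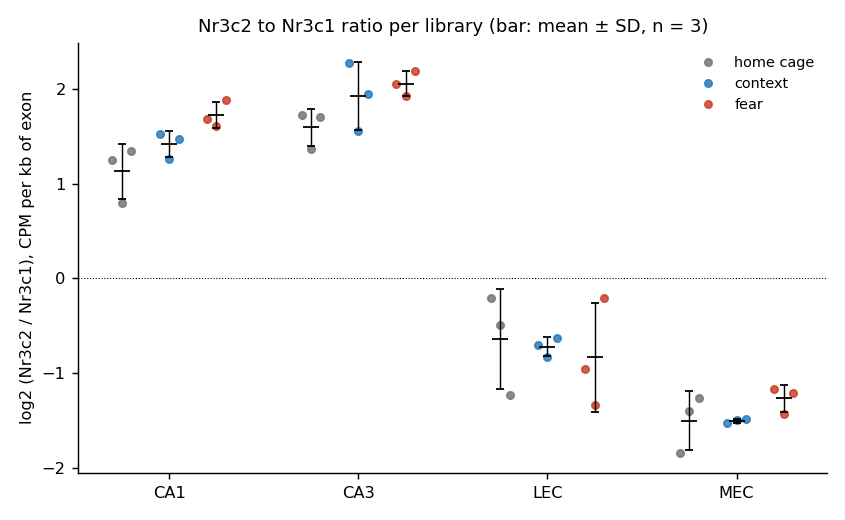
Log2 ratio of Nr3c2 to Nr3c1 (CPM per kb of exon) in each library, by region on the x axis and condition by colour, with the mean ± SD of 3 libraries as a bar. The hippocampal libraries lie at 0.80 to 2.27 and the entorhinal libraries at -1.85 to -0.21, on opposite sides of the dotted line of equal levels.

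Hsd11b1 (ENSMUSG00000016194, chromosome 1, 193221634 to 193264075, minus strand), the enzyme that regenerates corticosterone, was at 40.4 to 80 CPM in CA1 (median 48.3) and at 33 to 57 CPM in CA3 (median 41.6). Levels in MEC were 20.5 to 32.6 CPM (median 27.2) and in LEC 11.8 to 21.4 CPM (median 16.9). The hippocampal libraries did not overlap the entorhinal ones. CA1 exceeded LEC by 1.66 ± 0.12 (3.17-fold, adjusted p = 3.13e-13) and MEC by 1.01 ± 0.12 (2.01-fold, adjusted p = 1.24e-08), and CA3 exceeded LEC by 1.43 ± 0.12 (adjusted p = 8.83e-12) and MEC by 0.77 ± 0.12 (adjusted p = 1.56e-06). In contrast to Nr3c2, MEC lay above LEC, by 0.65 ± 0.12 (adjusted p = 0.000114). CA1 and CA3 did not differ beyond their spread (0.23 ± 0.11, adjusted p = 0.122). Hsd11b2, which inactivates corticosterone and shields the mineralocorticoid receptor in kidney, was at most 0.341 CPM in any of the 36 libraries.

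Crh (ENSMUSG00000049796, chromosome 3, 19693401 to 19695396, minus strand) was the scarcest member, with 3 to 78 counts per library, so that counting error weighs on each value. It was at 1.03 to 2.33 CPM in LEC (median 1.37), 0.861 to 1.79 CPM in MEC (median 1.40), 0.459 to 1.57 CPM in CA1 (median 0.776) and 0.117 to 0.814 CPM in CA3 (median 0.382). CA3 was lowest: it was below LEC by -1.83 ± 0.25 (adjusted p = 4.43e-07), below MEC by -1.62 ± 0.25 (adjusted p = 3.34e-06) and below CA1, which exceeded it by 1.10 ± 0.26 (adjusted p = 0.00117). CA1 was below LEC by -0.73 ± 0.24 (adjusted p = 0.0121). The neighbours LEC and MEC, and MEC and CA1, did not differ beyond their spread (adjusted p = 0.612 and 0.0777).

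Interneurons are a known source of Crh in the forebrain, and the 9 interneuron markers summed to 647 to 893 CPM in LEC and 672 to 905 CPM in MEC, against 442 to 783 CPM in CA1 and 517 to 672 CPM in CA3. Between CA3 and LEC, 5 of the 9 were called lower in CA3 and 1 higher, where 39.8% of all genes were called. Vip, a marker of one interneuron class, was at 5.17 to 11.5 CPM in CA3, 10.1 to 22.8 CPM in CA1, 37.5 to 54.6 CPM in LEC and 33.6 to 48.1 CPM in MEC. Pvalb, a marker of another class, ran the other way between CA3 and LEC, at 17.5 to 35.5 CPM and 6.42 to 17.5 CPM. It was at 22.2 to 46.2 CPM in CA1 and 14 to 43 CPM in MEC. The share of the interneuron marker differences in that of Crh was not tested. Sim1 and Otp, genes of the hypothalamic nucleus that makes most CRH, were at a median of 0 CPM in each region and at most 0.573 and 0.0365 CPM. Trh, also made in that nucleus, was at 0.315 to 60.4 CPM in LEC (median 24.3) and at most 2.41 CPM in the other regions. The whole list of 6 markers of that nucleus and of the amygdala summed to 45.1 to 178 CPM in LEC, 49 to 91.6 CPM in MEC, 2.57 to 10 CPM in CA1 and 8.4 to 19.8 CPM in CA3. Most of the sum in MEC came from 1 gene of the list, Rspo2, at 47.8 to 89.1 CPM there and 17.9 to 48.1 CPM in LEC. The part of this list in the levels of Crh was not tested.

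Crhr1 (ENSMUSG00000018634, chromosome 11, 104132855 to 104175523, plus strand) rose in steps from CA3 to MEC. It was at 3.58 to 12.8 CPM in CA3 (median 7.71), 6.66 to 15.9 CPM in CA1 (median 10.3), 8.75 to 19.9 CPM in LEC (median 15) and 15.7 to 32.2 CPM in MEC (median 23.1). All 6 pairs of regions were called. The widest difference was CA3 below MEC, by -1.53 ± 0.14 (adjusted p = 7.03e-11), the pair whose libraries did not overlap. CA1 was below MEC by -1.01 ± 0.13 (adjusted p = 2.03e-07), CA3 below LEC by -0.88 ± 0.14 (adjusted p = 3.27e-06), and MEC above LEC by 0.64 ± 0.13 (adjusted p = 0.000704). CA1 exceeded CA3 by 0.51 ± 0.14 (adjusted p = 0.00427). The narrowest, CA1 below LEC by -0.37 ± 0.13 (adjusted p = 0.0248), missed the threshold when replicate 2 or 3 of home cage, replicate 3 of context, or replicate 1 or 2 of fear was left out in all regions (-0.38 to -0.28, adjusted p of 0.0549 to 0.102).

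Crhbp (ENSMUSG00000021680, chromosome 13, 95431371 to 95444924, minus strand) was the most even of the CRH genes: 19.9 to 65.5 CPM in CA1 (median 36.4), 19 to 33.9 CPM in CA3 (median 31.7), 26.3 to 40.9 CPM in LEC (median 30.8) and 21.8 to 29.5 CPM in MEC (median 25.4). MEC stood lowest, with CA1 above it by 0.50 ± 0.12 (adjusted p = 0.000616) and a log2 difference to LEC of -0.35 ± 0.12 (adjusted p = 0.0328). The latter missed the threshold in 6 of 9 fits that left out 1 replicate number of a condition (home cage 1, context 1, context 3 and each of fear 1 to 3, at -0.38 to -0.31, adjusted p of 0.0503 to 0.108). The other 4 pairs were not called.

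Per kilobase, the transcript of the binding protein far exceeded that of its ligand. The log2 ratio of Crhbp to Crh averaged 5.80 ± 0.85 (SD, n = 9) in CA3, 4.86 ± 0.81 in CA1, 3.96 ± 0.43 in LEC and 3.80 ± 0.31 in MEC, that is from 55.6-fold in CA3 to 13.9-fold in MEC. The log2 ratio of Crhr1 to Crhbp ran the other way, from -2.41 ± 0.71 in CA3 and -2.16 ± 0.48 in CA1 to -1.61 ± 0.49 in LEC and -0.63 ± 0.39 in MEC. MEC thus had the highest mean of receptor to binding protein transcript. The order of CA1 and CA3 differed between conditions, with -1.73 and -1.84 in the home cage, -2.33 and -2.22 after fear and -2.41 and -3.17 after the context.

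**Figure D3:**
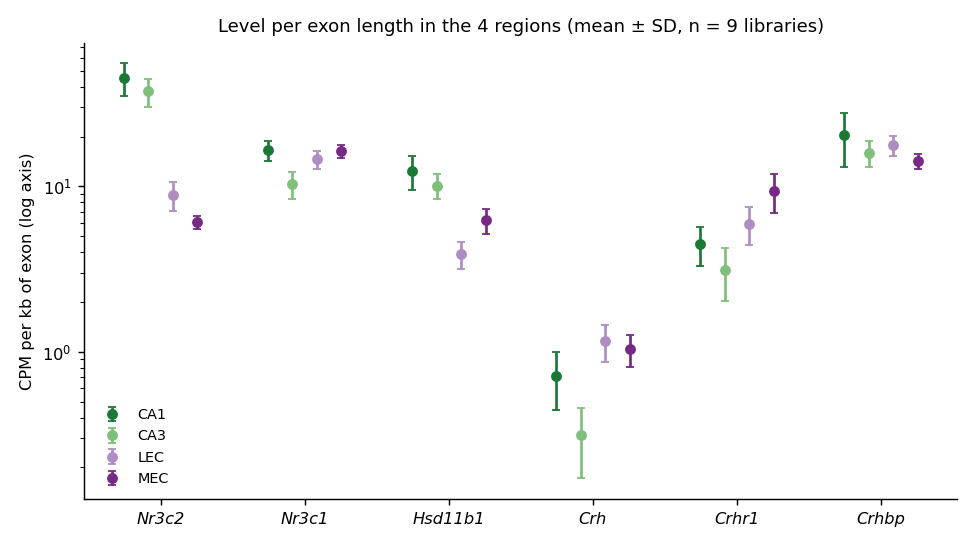
Mean CPM per kb of exon (log axis) with SD over the 9 libraries of each region, for the 6 members. Nr3c2 is at 45.2 and 37.6 CPM per kb in CA1 and CA3 and at 8.85 and 6.08 in LEC and MEC, while Crhbp stays between 14.2 and 20.5 and Crh is lowest at 0.314 in CA3.

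The wider pathway also differed between regions, on lists chosen by name with earlier results of these data known. Of 8 further genes of the CRH family, 4 passed the filter in the 36-library fit. Among them was Crhr2, the receptor preferred by the urocortins, which was at 0 to 0.57 CPM in CA3 against 1.64 to 3.66 CPM in LEC (log2 difference -3.41 ± 0.36, adjusted p = 1.54e-09). Avpr1b, a vasopressin receptor known from CA2, was the reverse, at 1.02 to 2.28 CPM in CA3 and at most 0.201 CPM in LEC (4.55 ± 0.66, adjusted p = 1.44e-06). The CA2 markers summed to 147 to 240 CPM in CA3 and 83.1 to 135 CPM in LEC. The urocortin genes Ucn and Ucn3 were at 0 in every library of CA1, CA3 and MEC and at most 0.0914 and 0.578 CPM in LEC, and Ucn2 was at most 0.145 CPM in any library.

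Of 20 glucocorticoid target genes, 11 were called higher and 4 lower in CA1 than in LEC (median log2 difference 0.48, against 0.0159 over all tested genes, of which 46.6% were called), and 10 were higher and 5 lower in CA3 than in LEC (median 0.538, against 0.011 and 39.8% called). Sgk1, a kinase induced by both receptors, was 1.67 ± 0.13 higher in CA3 than in LEC (adjusted p = 5.51e-12) and Zbtb16 1.43 ± 0.12 higher in CA1 than in LEC (adjusted p = 1.22e-11), whereas Cdkn1a, a cell cycle inhibitor, was lower in CA1 (-1.56 ± 0.17, adjusted p = 2.41e-09). Of 12 chaperones and immunophilins, Fkbp5, which lowers the affinity of the glucocorticoid receptor for its hormone, was higher in CA3 than in MEC (1.04 ± 0.10, adjusted p = 1.32e-10) and in CA1 than in MEC (0.80 ± 0.10, adjusted p = 3.62e-08). Among the 10 coregulators, Ncoa3 was higher in CA1 than in LEC (0.80 ± 0.07, adjusted p = 1e-11). Cyp7b1, which hydroxylates neurosteroids, was higher in CA3 than in MEC (1.40 ± 0.10, adjusted p = 5.02e-13). The regions also differed in the 9 oligodendrocyte markers, which summed to 3480 to 13100 CPM in CA1 and 5270 to 13200 CPM in CA3. In LEC they summed to 1130 to 1770 CPM and in MEC to 1660 to 3380 CPM. Their part in the differences of these genes and of the members between regions was not tested.

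Over the 12 group means, other genes followed some members closely, which is given as a description. Among the 3 genes with the highest Pearson r to each member, of 10088 genes averaging 3 or more on the log2 CPM scale, were Zeb2, Gria1 and Wipf3 for Nr3c2 (r = 0.998, 0.991 and 0.99) and Aldh1a1, Robo3 and Csrp1 for Hsd11b1 (0.991, 0.974 and 0.97). They included Socs5 and Far2 for Nr3c1 (0.969 and 0.961), Tacc1, Cnih3 and Cntnap5a for Crh (0.964, 0.963 and 0.96) and Grip2, Stk40 and Il17ra for Crhr1 (0.96, 0.958 and 0.957). Crhbp had the loosest company, with Rab8b and Anks1b at 0.862 and 0.841. The 12 points share 4 regions, so these values mainly rank genes by regional pattern.

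Between conditions within a region, 3 of 72 member differences were called, all against the home cage: Nr3c2 higher and Crhr1 lower in CA3 after the context, and Crhr1 higher in MEC after fear. No member was called between fear and context in the edgeR fits of the 9 libraries of a region. Of the 72 differences, 18 had an unadjusted p under 0.05, where the share of all genes with such a p ran from 1.26% (LEC, fear against context) to 36.4% (CA3, context against home cage). CPM of the groups did not overlap for 33.1% of genes in CA3 after the context and 31.4% in MEC after fear, against home cage. In the other comparisons within regions, lack of overlap is given below without such a share and is a description only.

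**Figure D4:**
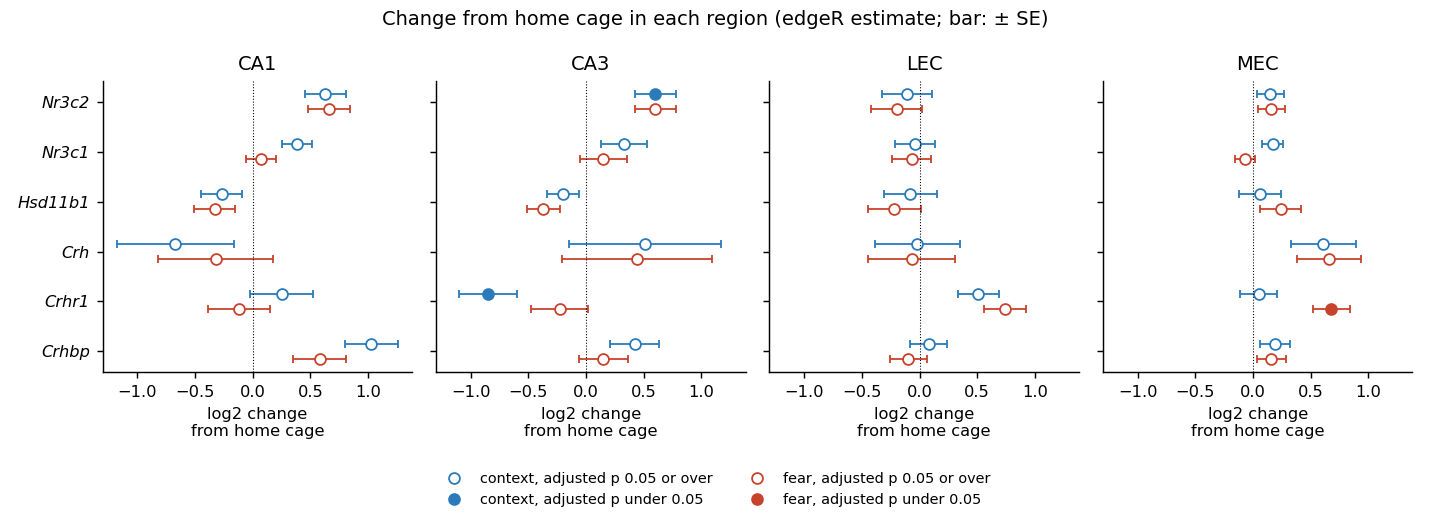
Log2 change from home cage (edgeR estimate, bar ± SE) of each member in the 4 regions, blue for context and red for fear, with filled points where the adjusted p was under 0.05. The filled points are Nr3c2 at 0.60 and Crhr1 at -0.85 in CA3 after the context and Crhr1 at 0.68 in MEC after fear.

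In MEC, Crhr1 was the member called after fear. It was at 15.7, 17.5 and 24.9 CPM in the 3 home cage libraries, 17.1, 18.9 and 23.1 CPM after the context and 27.8, 31.3 and 32.2 CPM after fear. All 3 fear libraries were above the other 6. The rise from home cage was 0.68 ± 0.16 on the log2 scale (adjusted p = 0.0213). It made 1 of 6 members called, where 9.56% of 16314 genes were called, and 1 of 2 members without overlap, where 31.4% of genes did not overlap. Against context the difference was 0.63 ± 0.16 and was not called (adjusted p = 0.312), in a comparison in which 0% of genes passed in edgeR, 2395 had an unadjusted p under 0.05 and DESeq2 called 51. The rise over home cage was of similar size but missed the threshold without fear 2 (0.66, adjusted p = 0.077), fear 3 (0.65, 0.0944), home cage 1 (0.57, 0.0758) or home cage 2 (0.61, 0.0829), and in the fit of all 36 libraries (0.71, 0.116). The difference from context passed in edgeR without the filter (0.62, adjusted p = 0.0495), with the replicate number as a block (0.64, 0.0117), with the interneuron markers as a covariate (0.59, 0.00631) and without home cage 3 (0.63, 0.0478).

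Crh in MEC was at 1.06, 0.861 and 1.13 CPM in the home cage, 1.4, 1.79 and 1.38 CPM after the context and 1.49, 1.64 and 1.61 CPM after fear, so that all 6 libraries of the behaving mice were above the 3 of the home cage. The differences, 0.66 ± 0.28 for fear and 0.61 ± 0.28 for context, were not called (adjusted p = 0.134 and 0.317). In the context comparison 0 of 6 members and 0.57% of genes were called by edgeR. Nr3c1 in MEC was at 144, 134 and 131 CPM after the context and 117, 121 and 109 CPM after fear, a log2 difference of -0.23 ± 0.09 that was not called (adjusted p = 0.326). Nr3c2, Hsd11b1 and Crhbp had no unadjusted p under 0.05 in MEC.

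Genes around the receptors also changed in MEC after fear, on lists chosen with earlier results of these data known. Of 19 tested glucocorticoid targets, 9 were called higher and 0 lower, against 5.68% of all genes called higher, with a median of 0.569 (-0.0146 over all genes). Zbtb16 rose by 0.79 ± 0.10 (adjusted p = 0.000881), Klf9 by 0.69 ± 0.10 (0.00189), Cdkn1a by 1.5 ± 0.25 (0.00458) and Tsc22d3, which encodes the anti-inflammatory protein GILZ, by 0.74 ± 0.13 (0.00583). Zbtb16 was also called higher in MEC after the context (0.55 ± 0.10, adjusted p = 0.0349). No gene was called between fear and context in MEC by edgeR. Of the 10 coregulators, 4 rose and 0 fell, with Nrip1 at 0.42 ± 0.10, Ncoa3 at 0.39 ± 0.10 and Ncoa2 at 0.31 ± 0.09 (adjusted p = 0.0207, 0.0232 and 0.0497). Abcb1b, which encodes an efflux pump of the P-glycoprotein kind, fell by 0.82 ± 0.20 (adjusted p = 0.0206).

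Beside these changes, 6 of 9 oligodendrocyte markers were called higher in MEC after fear, their sum being 2430 to 3380 CPM against 1660 to 2360 CPM in the home cage, and the 9 interneuron markers summed to 840 to 905 CPM against 672 to 744 CPM, with 2 called higher and 1 lower. None of these markers was at 0 in every library. Of all genes, 5.68% were called higher and 9.56% in either direction in this comparison. With the oligodendrocyte markers as a covariate the rise of Crhr1 was 0.58 (adjusted p = 0.00567), with the interneuron markers 0.83 (adjusted p = 1.84e-05), and with offsets for GC content and length 0.48 (adjusted p = 0.00318).

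In LEC, 0 of 18 member differences were called by edgeR and 0 by DESeq2, and 2 had an unadjusted p under 0.05, both of Crhr1. No gene was called by edgeR in the LEC comparisons of fear with home cage, context with home cage or fear with context (0%), where 1242, 403 and 207 genes had an unadjusted p under 0.05 and DESeq2 called 28, 1 and 0. Crhr1 in LEC was at 8.75, 12.3 and 10.6 CPM in the home cage, 13.3, 16.1 and 16.3 CPM after the context and 19.1, 19.9 and 15 CPM after fear. Neither set of 3 overlapped the home cage, and the share of all genes without overlap in LEC is not given here. The 8 neocortical layer markers, with 0 called by edgeR, summed to 379 to 463 CPM in the home cage, 511 to 554 CPM after the context and 647 to 745 CPM after fear, and their part in the levels of Crhr1 was not tested. The log2 difference from home cage was 0.74 ± 0.18 for fear (adjusted p = 0.527) and 0.51 ± 0.18 for context (adjusted p = 1), so neither passed.

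In CA3 after the context, Nr3c2 was higher and Crhr1 lower than in the home cage, which made 2 of 6 members called where 13.9% of 16145 genes were called. With 3 members the CPM did not overlap, as for 33.1% of genes. Nr3c2 in CA3 was at 190, 151 and 232 CPM in the home cage, 248, 281 and 271 CPM after the context and 264, 250 and 302 CPM after fear. The 6 libraries of the behaving mice were above the 3 of the home cage, and those of context and fear overlapped. The rise after the context was 0.60 ± 0.18 (adjusted p = 0.0486). After fear it was of the same size, 0.60 ± 0.18, and not called (adjusted p = 0.162), in a comparison where 0 of 6 members and 0.00619% of genes were called by edgeR and DESeq2 called 595 genes, Nr3c2 among them (0.63, adjusted p = 0.0392).

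Crhr1 in CA3 was at 9.59, 12.8 and 7.71 CPM in the home cage, 6.26, 3.58 and 5.4 CPM after the context and 8.59, 9.14 and 6.34 CPM after fear. The 3 context libraries were below all others. The log2 difference of context from home cage was -0.85 ± 0.25 (adjusted p = 0.0476), and the difference of fear from context, 0.63 ± 0.25, was not called (adjusted p = 0.178). In that comparison 0% of genes passed in edgeR, 3785 had an unadjusted p under 0.05 and DESeq2 called 702, none of them a member. Both calls held without context 1 or home cage 3. Without each of the other 7 libraries, the 3 fear libraries of CA3 included, both missed the threshold at 0.44 to 0.60 for Nr3c2 (adjusted p of 0.0608 to 0.179) and -0.91 to -0.66 for Crhr1 (0.0604 to 0.181). In those 7 fits 0 genes were called in the comparison by edgeR, against 2243 with all 9 libraries.

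Without context 2 and home cage 2 the changes in CA3 were 0.39 for Nr3c2 (adjusted p = 0.322) and -0.47 for Crhr1 (adjusted p = 0.348). The longest transcript of Crhr1 has 58.2% GC, above 91.5% of tested genes, and with offsets for GC content and length its change was -0.08 (adjusted p = 0.826), while that of Nr3c2, at 47.5% GC, was 0.37 (adjusted p = 0.116). In CA3 after the context, 13.9% of all genes were called in either direction. Of the 5 blood markers 4 were lower than in the home cage (sums of 9.04 to 19.7 CPM against 32.4 to 58.4 CPM), as were 4 of 9 microglia markers, whose part in these changes was not tested. Nor was that of the 5 CA1 pyramidal markers, which summed in CA3 to 156 to 379 CPM in the home cage, 88.7 to 154 CPM after the context and 285 to 349 CPM after fear, with 0 called by edgeR. The 9 oligodendrocyte markers summed in CA3 to 6960 to 13200 CPM in the home cage and 5830 to 8320 CPM after the context. After fear they summed to 5270 to 7410 CPM, and their part was not tested. The interneuron markers summed to 568 to 672 CPM after the context against 517 to 549 CPM in the home cage. With them as a covariate the changes were 0.56 and -0.82 (adjusted p = 0.48 for both), and with the dentate granule markers 0.56 and -0.98 (adjusted p = 0.162 and 0.133).

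Hsd11b1 in CA3 was at 57, 48.9 and 46.5 CPM in the home cage, 41.6, 38.2 and 42.1 CPM after the context and 40.8, 33 and 36.5 CPM after fear. All 6 libraries of the behaving mice were below the home cage. The difference after fear was -0.37 ± 0.14 and was not called (adjusted p = 0.208). Of the 20 glucocorticoid targets in CA3 after the context, 2 were called higher (Errfi1 by 0.91 ± 0.14 and Klf9 by 0.57 ± 0.15, both with an adjusted p of 0.045) and 1 lower (Mt2, a metallothionein, at -1.91 ± 0.55, adjusted p = 0.0482). In this comparison 13.9% of all genes were called, so the count of targets is near that share. No gene was called in 7 of the 9 fits that left out 1 library.

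In CA1, 0 of 18 member differences were called by edgeR, 6 had an unadjusted p under 0.05 and DESeq2 called 3. No gene at all passed in edgeR in the CA1 comparisons of fear with home cage, context with home cage or fear with context (0%), where 3553, 3449 and 918 genes had an unadjusted p under 0.05 and DESeq2 called 1389, 979 and 17. Crhbp in CA1 was at 24.9, 31.3 and 19.9 CPM in the home cage, 40.5, 65.5 and 41.4 CPM after the context and 42.6, 29.1 and 36.4 CPM after fear. The context libraries were above the home cage ones, while those of fear overlapped them. The log2 difference was 1.03 ± 0.23 for context (adjusted p = 0.104) and 0.58 ± 0.23 for fear (adjusted p = 0.173). The context difference passed in the fit of all 36 libraries (1.05, adjusted p = 0.00633) and in DESeq2 (1.04, adjusted p = 0.00312).

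The 9 interneuron markers summed to 442 to 548 CPM in the CA1 home cage libraries, 643 to 783 CPM after the context and 653 to 777 CPM after fear, with 0 of 9 called by edgeR and none at 0 in every library. The 6 dentate granule markers summed to 202 to 471 CPM in the home cage and 32.8 to 313 CPM after the context. With the interneuron markers as a covariate the context difference of Crhbp was 1.05 (adjusted p = 0.132) and with the dentate granule markers 0.56 (adjusted p = 0.586). Without context 2 and home cage 2 it was 0.92 (adjusted p = 0.55).

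Nr3c2 in CA1 was at 252, 167 and 247 CPM in the home cage, 320, 337 and 323 CPM after the context and 323, 275 and 393 CPM after fear, so that the home cage again lay below all 6 other libraries. The 5 CA1 pyramidal markers, none of them called by edgeR, summed to 500 to 1120 CPM in the home cage, 1030 to 1400 CPM after the context and 624 to 1260 CPM after fear, and the 8 neocortical layer markers to 260 to 321, 372 to 401 and 294 to 459 CPM. In the same order, the 9 oligodendrocyte markers summed to 4330 to 13100, 5500 to 6380 and 3480 to 6550 CPM. The part of these marker lists in the levels of Nr3c2 was not tested. The difference was 0.63 ± 0.18 for context (adjusted p = 0.113) and 0.66 ± 0.18 for fear (adjusted p = 0.0834). The fear difference passed with the replicate number as a block (0.66, adjusted p = 0.0472) and without home cage 1 (0.77, adjusted p = 0.0458), and both passed in DESeq2 (adjusted p = 0.0138 for fear and 0.025 for context). Without context 2 and home cage 2 they were 0.48 and 0.43 for fear and context (adjusted p = 0.284 and 0.552). Nr3c1 in CA1 was at 126, 113 and 116 CPM in the home cage, 133, 167 and 139 CPM after the context and 119, 107 and 126 CPM after fear, and the context difference of 0.38 ± 0.13 was not called (adjusted p = 0.145).

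Averaged over the 4 regions, 4 of 18 member differences were called. After fear 1 of 6 members was called (24.1% of 17875 genes), after the context 3 of 6 (22.1%), and between fear and context 0 of 6 in edgeR and in DESeq2, with 3.37% of genes called and 3 members at an unadjusted p under 0.05. Nr3c2 was higher than in the home cage by 0.33 ± 0.10 after fear (adjusted p = 0.0164) and by 0.34 ± 0.10 after the context (adjusted p = 0.0156). Beside the values of CA1 and CA3 above, Nr3c2 was at -0.20 ± 0.22 and -0.11 ± 0.22 in LEC and at 0.16 ± 0.12 and 0.15 ± 0.12 in MEC, after fear and after the context. Crhbp was higher by 0.45 ± 0.10 after the context (adjusted p = 0.00188), and its difference after fear was 0.22 ± 0.10 (adjusted p = 0.104). In the fits of single regions its context difference was uneven. It was widest for CA1 (1.03 ± 0.23), then CA3 (0.42 ± 0.21), MEC (0.19 ± 0.13) and LEC (0.08 ± 0.16), none of them called. Nr3c1 was higher by 0.23 ± 0.08 after the context (adjusted p = 0.0356). Its single-region values ran from -0.04 ± 0.17 (LEC) to 0.38 ± 0.13 (CA1), with MEC at 0.17 ± 0.09 and CA3 at 0.33 ± 0.20, none of them called. Crhr1 missed the threshold after fear (0.30 ± 0.12, adjusted p = 0.0623), and Hsd11b1 and Crh had no unadjusted p under 0.05. The comparisons with home cage share those libraries.

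Of these averaged calls, that of Crhbp held in each alternative run on them, also when context 2 and home cage 2 were left out in both CA1 and CA3 (0.40, adjusted p = 0.019) and with GC and length offsets (0.52, adjusted p = 0.00119). No marker list was used as a covariate for the averages. In CA1 alone, the dentate granule covariate gave a context difference of Crhbp of 0.56 (adjusted p = 0.586). With the offsets Nr3c2 was at 0.17 after fear (adjusted p = 0.176) and 0.21 after the context (0.101), and Nr3c1 at 0.06 (0.414). With those 4 hippocampal libraries left out, Nr3c2 was at 0.23 (adjusted p = 0.0902) and 0.22 (0.172) and Nr3c1 at 0.10 (0.479). When 1 replicate number of a condition was left out in all regions, Nr3c2 missed the threshold after fear without home cage 2 (0.25, adjusted p = 0.113), fear 1 (0.33, 0.0596) or fear 3 (0.17, 0.277). After the context it missed it without home cage 2 (0.25, adjusted p = 0.118), context 2 (0.32, 0.0791) or context 3 (0.34, 0.0553). Nr3c1 held without home cage 3 or context 1 and missed the threshold without each of the other 7, at 0.13 (without context 2) to 0.26 (adjusted p of 0.0596 to 0.329).

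Around them, 12 of 20 glucocorticoid targets were called higher and 1 lower after fear, averaged over regions, against 14.2% of all genes called higher (median 0.415, against -0.00336). The list was chosen with earlier results of these data known. Sgk1 rose by 0.89 ± 0.11 (adjusted p = 3.89e-06), Klf9 by 0.52 ± 0.07 (7.4e-06), Hif3a by 1.11 ± 0.15 (8.99e-06) and Cdkn1a by 1.00 ± 0.14 (1.08e-05). After the context 9 were higher and 2 lower, against 13.5% of genes called higher (median 0.0861, against -0.0272), with Errfi1 higher by 0.47 ± 0.08 (adjusted p = 0.000167) and the metallothionein gene Mt1 lower at -1.16 ± 0.25 (0.00173). Klf9 and Hif3a were also higher after the context, by 0.43 ± 0.07 (adjusted p = 0.000174) and 0.73 ± 0.15 (0.00112). Between fear and context, Sgk1 (0.47 ± 0.11, adjusted p = 0.0307), Cdkn1a (0.58 ± 0.14, 0.0307) and Nfkbia (0.45 ± 0.12, 0.0421) were higher after fear.

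Of 10 coregulators 7 rose and 0 fell after fear, where 14.2% of all genes were called higher. After the context 7 rose and 0 fell, where 13.5% of all genes were called higher. Ncoa2 rose by 0.43 ± 0.07 and 0.37 ± 0.07 (adjusted p = 3.19e-05 and 0.000365). Among 12 chaperones and immunophilins 4 rose and 1 fell after fear (24.1% of all genes called in either direction), and 6 rose and 0 fell after the context (22.1%). Hsp90ab1, part of the complex that holds the receptors ready for hormone, rose by 0.38 ± 0.06 after fear (adjusted p = 5.84e-05) and by 0.34 ± 0.06 after the context (0.000432). Fkbp5, itself a glucocorticoid target, rose by 0.42 ± 0.08 after fear (adjusted p = 0.00042). H6pd, which supplies the cofactor of the Hsd11b1 enzyme, was 0.43 ± 0.14 higher after fear than in the home cage (adjusted p = 0.0217) and 0.52 ± 0.14 higher than after the context (adjusted p = 0.0392).

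Whether the conditions acted differently in different regions was tested in the 36-library fit, where 0 of 18 member values were called by edgeR, 6 had an unadjusted p under 0.05 and DESeq2 called 1. No gene passed in edgeR for any region by condition interaction, nor for the entorhinal minus hippocampal difference after fear or after the context (0%), where 1822, 2072 and 2860 genes had an unadjusted p under 0.05 and DESeq2 called 94, 54 and 54. Crhr1 was the member that DESeq2 called for any interaction (adjusted p = 0.0336, against 0.477 in edgeR). Its change after fear was 0.89 ± 0.23 higher in the entorhinal regions than in the hippocampal ones (adjusted p = 0.24), and without home cage 3 this difference was 1.21 (adjusted p = 0.0287). For Nr3c2 the same difference was -0.64 ± 0.20 after fear (adjusted p = 0.314) and -0.58 ± 0.20 after the context (adjusted p = 0.218). A difference in the response of either gene between cortex and hippocampus was therefore not established by edgeR.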

How the data were processed

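The deposited values were whole-number read counts per gene, for which the submitters' processing notes name Trimmomatic 0.33, STAR 2.7.10b, HTSeq 2.0.1 and the build mm10. Per the labels' protocols the kit was stranded. How HTSeq treated strand, and with which annotation release, is not given in the sources used here. Symbols, coordinates and exon lengths came from GENCODE M21 (GRCm38, which is mm10), and 35449 of 37315 identifiers (95.0%) had a symbol. CPM used library totals, 21871412 to 68974340.

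Groups came from the tissue and treatment labels. edgeR 4.0.16 in R 4.3.3 (filterByExpr, TMM, robust quasi-likelihood) was fitted to the 9 libraries of each region (6 residual degrees of freedom), with conditions as groups, and to all 36 libraries (24 residual degrees of freedom) for regions, averages and interactions, with Benjamini-Hochberg adjustment over all genes of a fit. Scripts were tested on simulated data. The members, the lists and the tests were chosen with earlier results of these data known. All 6 members are named throughout, and of each pathway list at most the 4 called genes of smallest p in a comparison. A few genes that these rules would name are not reported here.

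Deviations of same-numbered libraries correlated above 0.1 in every pair for CA1 fear and home cage (0.30, 0.40 and 0.23) and for MEC context and home cage (0.60, 0.33 and 0.76), of 12 comparisons within regions, and across regions for CA1 and CA3, CA1 and LEC, and CA3 and LEC after fear (0.15 to 0.54) and MEC and LEC after the context (0.67, 0.24 and 0.64), of 18. The 36-library fit treats libraries of different regions as independent. Alternatives were RLE size factors, no filter, DESeq2 1.42.0, the replicate block, the 36-library fit, interneuron markers as covariate, TMM-scaled CPM and leaving out each library. GC and length offsets (splines with 5 degrees of freedom), dentate granule or oligodendrocyte covariates and leaving out context 2 and home cage 2 were added after the data were seen.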

Additional observations from a re-analysis of the deposited data

Results flagged for a closer look

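Nr3c2 in MEC of home cage 1 stood apart from the other 8 MEC libraries: at 30.5 CPM it was the lowest, and its gap to the next library on the log2 scale was 0.61 of the region's range, above Dixon's critical value for 9 libraries. The median of MEC was 40 CPM. It was the 1 flag among 24 gene and region combinations examined. Chance alone flags about 1 in 20 combinations, so 1 flag is near the number that chance gives. Nr3c2 had no called change between conditions in MEC.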

How the results depend on the processing

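Between regions, 25 of 36 member differences were called, with 23 to 29 over the alternatives: 25 with RLE size factors, without the filter and in DESeq2, 27 with the replicate block of condition and number, 29 with GC and length offsets (5 gained, and Crhbp for MEC minus LEC lost at -0.33, adjusted p = 0.053) and 23 to 26 when 1 replicate number of a condition was left out. The only sign that turned was that of Nr3c1 for CA1 minus MEC, 0.04 and not called, which was -0.01 without context 2 and ran from -0.01 to 0.07 with 1 replicate number of a condition left out. Within regions the calls were less stable, and the cause was not tested. In CA1 the count of 0 became 1 without the filter, 1 with the replicate block, 1 in the 36-library fit and 3 in DESeq2, and 0 to 1 with a library left out. In CA3 the count of 2 became 3 in the 36-library fit and in DESeq2, which both added Nr3c2 after fear, stayed at 2 with GC and length offsets and the block together (Nr3c2 after context, 0.38, adjusted p = 0.0408, and after fear, 0.43, 0.0372), and became 1 with the replicate block and 0 with each of the interneuron covariate, the dentate granule covariate, the GC and length offsets and context 2 and home cage 2 left out (in CA1 and CA3, 4 libraries), and 0 to 3 with a library left out. The call lost under the block in CA3 was that of Crhr1 (-0.84, adjusted p = 0.06). Deviations of same-numbered context and home cage libraries of CA3 correlated at -0.34, -0.51 and 0.17, and the labels do not say what such libraries share. In MEC the count of 1 became 0 in the 36-library fit and 2 without the filter, with the replicate block, with the interneuron covariate, with GC and length offsets and with these offsets and the block together, and 0 to 2 with a library left out. The added call without the filter, with the block and with the interneuron covariate was Crhr1 for fear minus context, and with the offsets it was Hsd11b1 for fear minus home cage. In LEC the count was 0 in every alternative. Averaged over regions, the count of 4 became 2 with GC and length offsets and 1 with those 4 hippocampal libraries left out, and ran from 1 to 5 with 1 replicate number left out. For any region by condition interaction the count of 0 became 1 in DESeq2 and stayed at 0 to 0 with 1 replicate number left out. In the comparisons within regions whose same-numbered libraries correlated above 0.1 in every pair, CA1 fear with home cage and MEC context with home cage, the block changed the call of Nr3c2 in CA1 and no other. Levels with TMM-scaled CPM moved by less than the SD between libraries for all 6 members in the 4 regions. At 3 to 78 counts per library, Crh had an SE of 0.28 to 0.66 on the log2 scale between conditions, so changes of that size were not detectable.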
